A study of Homo sapiens with 7 samples.

Results

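Promoters of Kasumi-1 cells were compared for 2 ChIP-seq targets, the coactivator p300 and trimethylated lysine 4 of histone H3 (H3K4me3). Kasumi-1 is an established human myeloblast line that carries the t(8;21) translocation and makes AML1-ETO, a fusion of the blood transcription factor AML1 (RUNX1) with most of ETO. All 5 peak lists used here, for p300, H3K4me3, AML1, AML1-ETO and N-CoR, came from this line alone, in log-phase growth and without treatment, so no cell without the fusion was compared. The authors pooled 2 biological replicate libraries per antibody before they called peaks. Each list therefore stands for a single pooled sample, there is no spread between replicates, and no test between lists or classes was made. The lists give summit positions without read counts or scores, and the depth behind a peak is not known from them.

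A transcription start site (TSS) was any distinct start of a protein-coding transcript in GENCODE release 44 on GRCh37 (hg19), the build of the lists. There were 78641 such starts for 19802 genes, with a median of 3 per gene. A start was positive for a list when a summit lay within 1000 bp. By this rule 43407 of the 78641 starts had p300, H3K4me3 or both. The p300 list held 11020 summits and the H3K4me3 list 19632. Offsets are given along the direction of transcription, negative upstream and positive downstream of the start.

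p300 (EP300) is a histone acetyltransferase that does not read DNA sequence itself and is brought to promoters and enhancers by transcription factors. H3K4me3 is laid down by the SET1 and MLL (KMT2) methyltransferase complexes at the starts of active or poised genes, above all at CpG islands, where the CXXC1 subunit binds unmethylated CpG. At an active start the DNA is depleted of nucleosomes, and the marked nucleosomes lie to either side of it.

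A few of the deposited 100 bp windows around p300 summits are shown here, from promoters with and without the histone mark. Each sequence is read 5′ to 3′ along its gene from GRCh37, lies outside every annotated exon, and is in lower case except for matches on either strand to motifs of families of DNA-binding proteins, which are in capitals. The motifs were CCGGAA (ETS), TGTGGT (Runx), GGGCGG (SP/KLF), the 10-base NRF1 palindrome, which is the run of capitals in the ANKRD26 window, TGACGTCA (CRE) and CCAAT (NFY). The first 4 windows are from granule protein genes with p300 and without H3K4me3 near the start: MPO (chr17:56358345-56358444, minus strand), CTSG (chr14:25045502-25045601, minus), BPI (chr20:36932436-36932535, plus) and RNASE2 (chr14:21423778-21423877, plus).
MPO: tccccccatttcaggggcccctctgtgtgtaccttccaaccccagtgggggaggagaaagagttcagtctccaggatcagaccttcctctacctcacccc
CTSG: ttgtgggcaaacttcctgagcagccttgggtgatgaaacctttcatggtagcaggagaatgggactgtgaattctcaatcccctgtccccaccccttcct
BPI: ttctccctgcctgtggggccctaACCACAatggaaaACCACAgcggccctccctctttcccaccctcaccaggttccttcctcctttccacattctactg
RNASE2: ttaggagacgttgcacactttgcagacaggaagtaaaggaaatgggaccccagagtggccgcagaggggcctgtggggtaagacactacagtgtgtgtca
These windows hold 0 CpG in MPO and CTSG, 1 in BPI and 2 in RNASE2. BPI has 2 copies of the Runx core, and the other 3 windows match none of the 6 motifs. Each motif is a fixed sequence, and other binding sites of these families were not counted.

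The next windows are from promoters with both p300 and H3K4me3: the myeloid regulator GFI1 (chr1:92951670-92951769, minus), the homeobox gene MEIS1 (chr2:66662155-66662254, plus), the H3K4 methylation genes RBBP5 (chr1:205091382-205091481, minus) and KMT2A (chr11:118306965-118307064, plus), and ANKRD26 (chr10:27389426-27389525, minus), whose p300 peak has one of the lowest numbers in the list.
GFI1: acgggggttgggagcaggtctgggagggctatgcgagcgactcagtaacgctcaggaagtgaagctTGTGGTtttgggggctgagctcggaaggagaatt
MEIS1: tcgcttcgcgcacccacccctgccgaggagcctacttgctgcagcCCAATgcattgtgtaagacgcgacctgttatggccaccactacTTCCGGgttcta
RBBP5: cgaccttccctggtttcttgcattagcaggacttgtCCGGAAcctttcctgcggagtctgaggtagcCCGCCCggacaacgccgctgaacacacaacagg
KMT2A: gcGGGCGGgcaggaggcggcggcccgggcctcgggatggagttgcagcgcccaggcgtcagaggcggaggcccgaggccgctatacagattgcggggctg
ANKRD26: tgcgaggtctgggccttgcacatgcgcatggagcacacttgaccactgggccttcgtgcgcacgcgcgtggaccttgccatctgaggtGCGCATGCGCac
These 5 windows hold from 5 CpG in GFI1 to 12 in KMT2A.

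Of all starts 32.1% had p300 and 54.1% H3K4me3. Most starts with p300 also had H3K4me3, whereas the mark often stood without p300. Both summits lay within 1000 bp of 24376 starts (31.0%, 95% exact Clopper-Pearson interval 30.7 to 31.3), p300 only of 871 (1.11%, 1.04 to 1.18), H3K4me3 only of 18160 (23.1%, 22.8 to 23.4) and neither of 35234 (44.8%, 44.5 to 45.2). These intervals cover counting error over starts, and starts of a gene often share a summit. Of the starts with p300, 96.6% (96.3 to 96.8) had H3K4me3, a share that was 83.7% (83.3 to 84.2) with summits allowed within 500 bp and 98.3% (98.1 to 98.4) within 2000 bp. Of those with H3K4me3, 57.3% (56.8 to 57.8) had p300, against 2.41% (2.26 to 2.58) of those without the mark. With a single representative start per gene, 33.5% of genes had both, 0.687% p300 only, 25.6% H3K4me3 only and 40.2% neither, and the lists taken alone marked 34.2% (p300) and 59.1% (H3K4me3). By that count 98.0% of p300-positive starts had H3K4me3 and 56.7% of H3K4me3-positive starts had p300.

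Counted by gene, with the class both given to a gene if any of its starts had both, 7020 genes (35.5%) had both, 161 (0.813%) p300 only, 5159 (26.1%) H3K4me3 only and 7462 (37.7%) neither. In all, 36.3% of genes had p300 at some start and 61.7% had H3K4me3. Of the 161 genes classed p300 only, 48 had another start with H3K4me3 only and 113 had the mark at no start. For 6311 genes the starts fell into more than 1 class. Seen from the peaks, 63.4% (62.5 to 64.3) of p300 summits and 78.9% (78.3 to 79.5) of H3K4me3 summits lay within 1000 bp of a start. H3K4me3 lay within 1000 bp of 95.2% of the p300 summits near a start and of 31.0% (29.6 to 32.5) of those farther away. Starts near the edge of the rule were few for each list taken alone but made up most of the p300 only class, where 519 of 871 had H3K4me3 at 1000 to 1500 bp. The nearest p300 summit was 900 to 1000 bp away at 335 starts and 1000 to 1100 bp away at 294, and for H3K4me3 these numbers were 523 and 432.

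Chromosome X stood apart from the autosomes in its share of marked starts with p300. p300 lay at 23.5% (21.3 to 25.8) of its 1394 H3K4me3-positive starts, against 58.5% (58.0 to 58.9) on the autosomes together, where single chromosomes ranged from 44.4% (chromosome 16) to 71.8% (chromosome 10). The mark was also at fewer starts there, at 1394 of 2912 (11.2% both and 36.6% H3K4me3 only) against 54.1% of all starts. This share was below that of each autosome, though chromosome 18 was close, with neither at 51.5% of its starts against 51.9% on X. Chromosome X held 3.42% of H3K4me3 summits and 3.70% of starts, but 1.29% of p300, 1.72% of AML1, 2.06% of AML1-ETO and 1.95% of N-CoR summits. How the number of copies of chromosome X in this line bore on peak calling was not tested. KDM5C, an H3K4 demethylase gene, and RPL36A, a ribosomal protein gene, were among the X-linked genes with both.

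Starts with H3K4me3 were CpG-rich with or without p300, and those with p300 only were intermediate at the 1000 bp limit. A start was called CpG-rich when the 500 bp to either side had an observed over expected CpG ratio of at least 0.6 and at least 50% G and C. This held for 89.3% (88.9 to 89.7) of starts with both, 81.0% (80.4 to 81.5) with H3K4me3 only, 45.7% (42.3 to 49.1) with p300 only and 17.8% (17.4 to 18.2) with neither, and for 54.8% of all starts. The place of p300 only did not hold at other limits: its CpG-rich share was above that of H3K4me3 only with summits allowed within 500 bp (85.3% against 84.6%) and below that of neither within 2000 bp (14.2% against 17.5%). At stricter limits of 0.75 and 55% G and C the order held but the shares were lower, at 57.5% with both, 51.4% with H3K4me3 only, 22.4% with p300 only and 8.81% with neither. Of genes with neither at a single representative start, 27.6% were CpG-rich there. The median CpG ratio was 0.788 with both, 0.766 with H3K4me3 only, 0.604 with p300 only and 0.290 with neither. The median number of CpG per 100 bp was higher with H3K4me3 only than with both (7.69 against 7.49), as was the median share of G and C (64.1% against 62.4%). At CpG-rich starts 84.5% carried the mark and at the rest 17.1%; among those marked, p300 was present at 59.7% (59.2 to 60.2) of the CpG-rich and 43.1% (41.8 to 44.3) of the other starts.

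**Figure D1:**
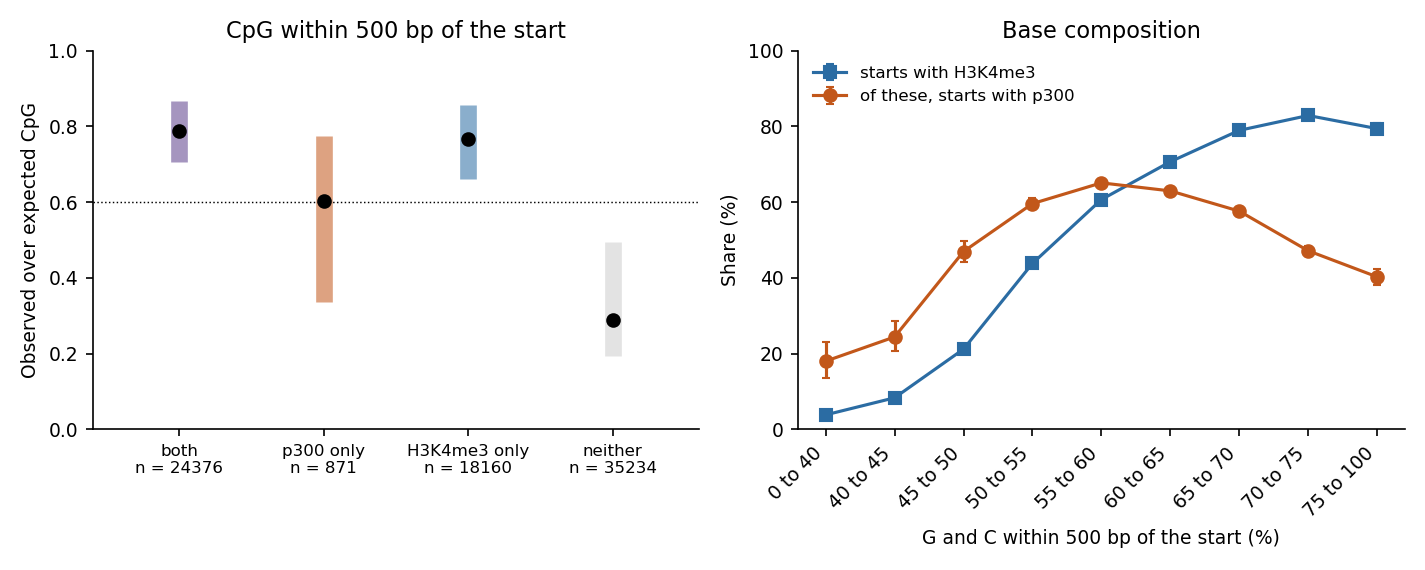
Left, observed over expected CpG within 500 bp of the starts of each class (point, median; bar, quartiles; dotted line, the 0.6 limit). Right, share of starts with H3K4me3 and share of these with p300 by percent G and C (bars, exact 95% intervals); from 65% G and C upwards the mark was at 79.0%, 82.9% and 79.4% of starts and p300 at 57.6%, 47.2% and 40.3% of these.

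The share of marked starts with p300 followed G and C content differently from the mark itself. The share of starts with H3K4me3 climbed from 3.83% below 40% G and C to 82.9% between 70 and 75%, and was 79.4% at or above 75%. Of the starts with the mark, the share with p300 was 18.0% in the poorest bin, was highest at 65.1% (64.1 to 66.1) between 55 and 60% G and C, and was 40.3% (38.2 to 42.3) in the richest. With a single start per gene it went from 66.8% between 55 and 60% to 36.1% in the richest bin. No such fall was seen over starts by the CpG ratio, where p300 was at 29.2% (24.3 to 34.6) of marked starts below 0.2 and at 62.4% (59.4 to 65.3) at 1 or above, as the mark went from 3.27% to 89.9% of starts. Counted once per gene, the p300 share was 58.2% (56.8 to 59.6) between 0.6 and 0.8 and 55.2% (49.4 to 60.8) at 1 or above. The granulocyte regulator genes CEBPA, with 77% G and C, and CEBPB, with 76%, were among the richest starts that had both. How base composition bore on peak calling in either library was not tested.

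Where a start had both, p300 was centred near the start and H3K4me3 downstream of it. At these starts, the median offset of the nearest p300 summit was -40 bp (95% order-statistic interval -43 to -38, quartiles -222 and 72) and that of the nearest H3K4me3 summit 224 bp (222 to 226, quartiles 12 and 330). Within 100 bp of the start lay 43.5% (42.9 to 44.1) of p300 summits and 5.25% (4.97 to 5.54) of H3K4me3 summits. Between 100 and 500 bp downstream the shares were 15.1% and 62.8%. At starts with p300 only, p300 was spread more widely, with quartiles of -405 and 494 bp and 21.4% (18.7 to 24.2) of summits within 100 bp. Counted once per gene, the quartiles of p300 only were -311 and 54.5 bp, and 36.0% (28.0 to 44.7) of its summits were within 100 bp, against 52.7% (51.5 to 53.9) with both. H3K4me3 lay downstream of p300 at 18920 of the 24376 starts with both (77.6%, 77.1 to 78.1). The summits were a median of 324 bp apart, and at 1.59% of the starts they were within 50 bp of each other. With a single start per gene the medians were -22 bp for p300 and 243 bp for H3K4me3, and only 1.12% of H3K4me3 summits, against 48.2% of p300 summits, fell between -200 and 50 bp.

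**Figure D2:**
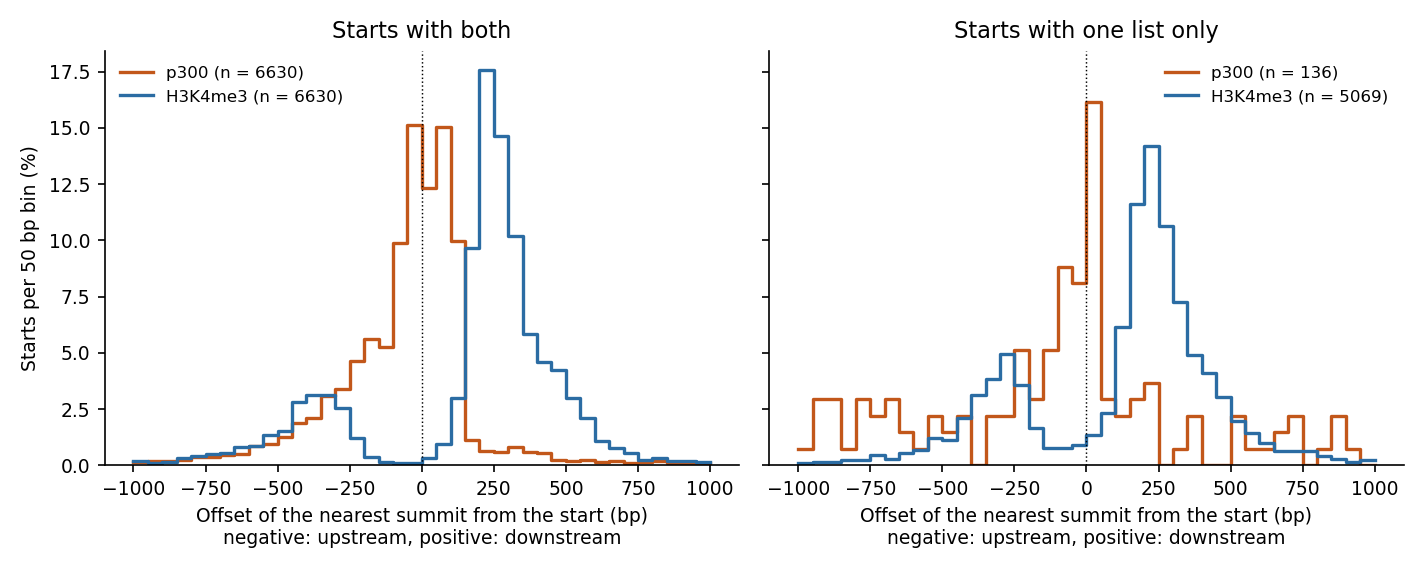
Share of starts per 50 bp bin against the offset of the nearest summit from the start, with a single start per gene. Left, the 6630 starts with both, where p300 centres on the start and H3K4me3 has a large downstream and a small upstream mode; right, starts with p300 only (136) and with H3K4me3 only (5069).

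Examples of the usual order were HEXA and LAMP1, lysosomal genes with the lowest p300 peak numbers of all genes with both. The meaning of the number is not stated by the authors. At HEXA, which codes for a lysosomal hexosaminidase, p300 was at -19 bp and H3K4me3 at 235 bp. At LAMP1, a lysosomal membrane protein gene, they were at -177 and 398 bp. VPS33A, a vesicle tethering gene, had p300 at -8 bp and H3K4me3 at 263 bp, and MYO1G, a myosin gene of blood cells with a CpG ratio of 0.289, had them at -207 and 198 bp. ANP32E, which codes for a histone H2A.Z chaperone, had the reverse order, with p300 at 49 bp and H3K4me3 at -470 bp.

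The p300 window of LAMP1 (chr13:113951327-113951426, plus strand) is shown for 4 copies of CACGTG, an E-box, in capitals here. This motif was looked for after the window had been seen.
LAMP1: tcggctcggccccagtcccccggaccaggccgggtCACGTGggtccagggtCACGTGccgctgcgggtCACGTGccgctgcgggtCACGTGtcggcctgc
CACGTG occurred in 3.97% (3.50 to 4.47) of the p300 windows at starts with both and 2.93% (2.43 to 3.49) of those more than 1000 bp from any start. It was in 4.28% (2.16 to 7.53) of those with p300 only and 3.64% (3.30 to 4.01) of all windows. Windows with 3 or more copies numbered 6 of 11020.

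At some starts H3K4me3 had summits on either side. Of 6173 such starts with both, the p300 summit was inside the inner pair of H3K4me3 summits at 5616 (91.0%, 90.2 to 91.7). The medians of that pair were -493 and 332 bp. Since these starts were chosen to lie between the pair and p300 sat close to the start, a high share follows in large part from the choice. Starts with both were also often divergent. A start of the opposite strand lay within 1000 bp upstream of 23.8% of starts with both, 18.3% with p300 only, 12.3% with H3K4me3 only and 1.65% with neither. In such head-to-head pairs the nearest H3K4me3 summit was upstream at 39.6% (38.3 to 40.9), against 20.0% (19.5 to 20.6) at the other starts with both. HNRNPH3, an RNA-binding protein gene, and the gene PBLD on the other strand are not such a pair, since they start at 70091821 and 70092685 on chromosome 10, with the start of PBLD downstream of that of HNRNPH3 and read towards it. They shared 1 p300 and 1 H3K4me3 summit. p300 was at 33 bp and H3K4me3 at 533 bp from HNRNPH3, so that from PBLD the order was turned, with H3K4me3 at 331 bp and p300 at 831 bp.

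Positions were close at CpG-rich and other starts. At CpG-rich starts with both the median offsets were -42 bp for p300 and 225 bp for H3K4me3, and at the other starts with both -29 and 218 bp. H3K4me3 was downstream of p300 at 77.4% (76.9 to 78.0) of the former and 79.2% (77.6 to 80.7) of the latter. SPI1, the gene of the myeloid regulator PU.1, has a CpG ratio of 0.291 and had p300 at -64 bp and H3K4me3 at 369 bp. At starts with H3K4me3 only the mark had a median offset of 181 bp (178 to 184), with 54.4% of summits between 100 and 500 bp downstream.

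Most starts with p300 only had an H3K4me3 summit not far beyond the limit. Their nearest H3K4me3 summit was a median of 1320 bp away, 519 of the 871 (59.6%, 56.2 to 62.9) had one at 1000 to 1500 bp, and 69.2% had one within 2000 bp. The lists give summits and not the extent of marked domains, so such a start can still lie inside one. HNRNPAB, an RNA-binding protein gene, had p300 exactly on the start (0 bp) and H3K4me3 at 1119 bp. SOX4, a transcription factor gene, had them at 10 and 1055 bp, and KIT, the stem cell factor receptor gene, at 43 and 1086 bp. The class depended on the distance allowed: it held 3604 starts at 500 bp and 465 at 2000 bp, of which 85.3% and 14.2% were CpG-rich.

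A smaller group was far from any H3K4me3 summit. There were 116 starts of 59 genes with none within 20000 bp. Within the class, 57.5% (53.5 to 61.5) of the 603 starts with H3K4me3 inside 2000 bp were CpG-rich, against 18.7% (13.5 to 24.8) of the 198 with none inside 5000 bp. The 10 genes farthest from the mark included CTSG and BPI, which code for neutrophil granule proteins, PADI4, a peptidylarginine deiminase gene of granulocytes, and AOAH, which codes for a leukocyte enzyme that inactivates bacterial lipid A. At AOAH p300 was at 27 bp and the nearest H3K4me3 at 334402 bp. At PADI4 they were at 675 and 129334 bp. The others were TNFSF4, a cytokine gene with p300 at 523 bp, OXTR, the oxytocin receptor gene, with p300 at 27 bp and a CpG ratio of 0.794, SNAP25, a gene of synaptic vesicle fusion, with p300 at 876 bp, CTTNBP2, a gene of neurons, with p300 at -591 bp, ENTREP2 and CCDC149. SIGLEC6, a sialic acid-binding receptor gene, had p300 at -37 bp and H3K4me3 at 30124 bp.

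AML1-ETO, AML1 and N-CoR, which the classes did not use, were near starts with p300 far more often than near the others. N-CoR is a co-repressor that binds AML1-ETO and brings histone deacetylases. AML1-ETO was within 1000 bp of 17.9% of all starts, 38.1% (37.5 to 38.7) of those with both, 51.8% (48.4 to 55.1) with p300 only, 18.6% (18.1 to 19.2) with H3K4me3 only and 2.64% (2.48 to 2.82) with neither. For N-CoR, at 10.2% of all starts, these shares were 26.0%, 41.9% (38.6 to 45.3), 5.10% and 1.05%. For AML1, at 14.6% of all starts, they were 36.1%, 41.6% (38.3 to 44.9), 10.1% and 1.38%. Any of the 3 was near 58.0% of starts with both, 65.2% with p300 only, 4537 of the 18160 with H3K4me3 only, 3.17% with neither and 25.9% of all. AML1-ETO and N-CoR were present together at 17.2%, 34.8% (31.6 to 38.1), 3.22%, 0.820% and 6.84% of these. At CpG-rich starts alone AML1-ETO was at 38.1% with both and 19.1% with H3K4me3 only, and at the rest at 38.1% and 16.7%. With p300 only it was at 49.5% of CpG-rich starts and 53.7% of the rest. AML1 was at 34.7% (30.0 to 39.6) of CpG-rich starts with p300 only and 36.1% with both. At the rest these shares were 47.4% (42.8 to 52.0) and 36.0%. For N-CoR they were 31.9% and 25.1% at CpG-rich starts, and 50.3% and 33.4% at the rest.

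Within the p300 only class these proteins went with distance from the mark. AML1-ETO was near 80.3% (74.1 to 85.6) of the starts with no H3K4me3 inside 5000 bp, and 41.5% (37.5 to 45.5) of those with it inside 2000 bp. For N-CoR the shares were 69.2% (62.3 to 75.5) and 31.2% (27.5 to 35.0). The 198 and 603 starts came from 114 and 386 genes, so the intervals treat starts that share summits as independent. The starts with H3K4me3 inside 2000 bp also lay farther from their p300 summit, with a median of 536 bp (465 to 593) against 241 bp (183 to 333). AML1-ETO summits lay a median of 44.5 bp from the p300 summit at p300 only starts and 103 bp at starts with both, and N-CoR summits 40 and 68 bp. H3K4me3 summits lay 333 bp from p300 by the same count. IL1RN, the interleukin 1 receptor antagonist gene, is an example, with p300 at -103 bp, AML1-ETO at -78 bp, N-CoR at -118 bp and H3K4me3 at 29535 bp.

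**Figure D3:**
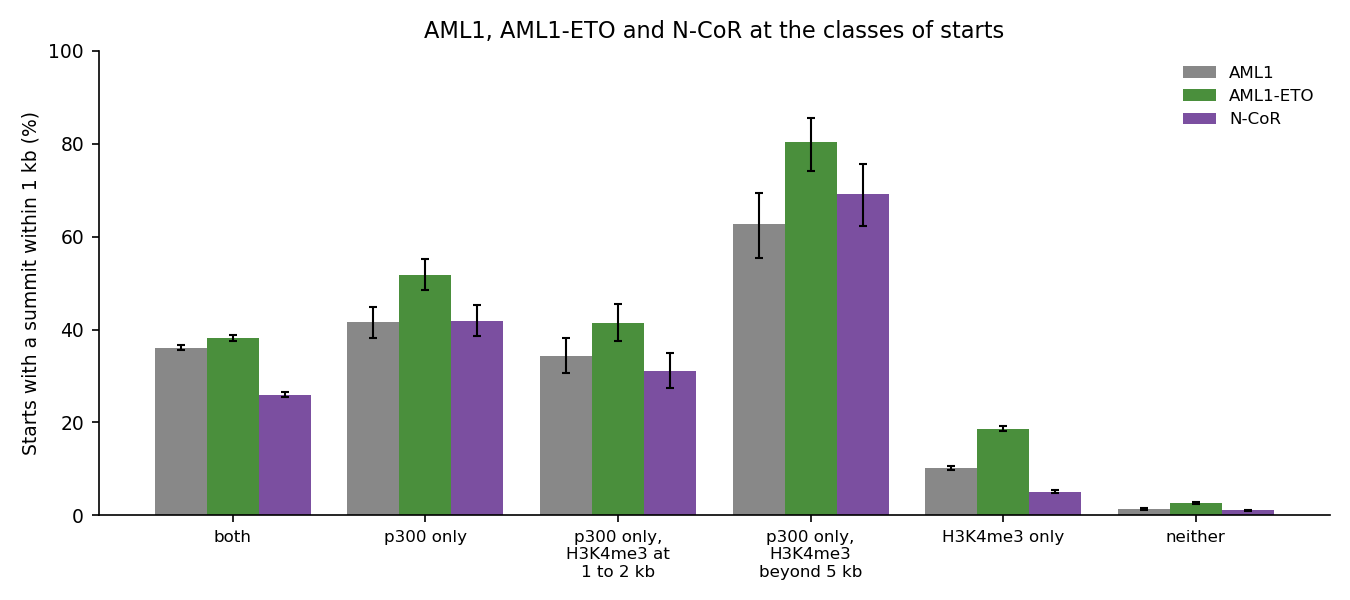
Share of starts with an AML1, AML1-ETO or N-CoR summit within 1 kb, for each class and for p300 only starts split by the distance of H3K4me3 (bars, exact 95% intervals). The share with AML1-ETO is 80.3% at p300 only starts with H3K4me3 beyond 5 kb and 2.64% at starts with neither.

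The motifs printed above differed between classes. For ETS only CCGGAA, which holds a CpG, was counted, so other ETS motifs, such as those of PU.1, are not covered. CCGGAA was in 17.2% (16.3 to 18.1) of p300 windows at starts with both. With p300 only the share was 9.34% (6.08 to 13.6), and beyond 1000 bp of a start 9.70% (8.80 to 10.7). The Runx core TGTGGT was in 3.18% (2.77 to 3.64), 12.8% (9.01 to 17.6) and 12.0% (11.0 to 13.0) of these windows. The middle value pools unlike windows: over all windows nearest to a p300 only start, shared with other classes or not, it was 5.91% (3.74 to 8.82) where H3K4me3 lay within 2000 bp and 15.1% (9.22 to 22.8) where it lay beyond 5000 bp. In the 300 bases from 250 before to 50 after a start, CCGGAA was in 36.8% (36.2 to 37.4) of promoters with both, 22.6% (22.0 to 23.2) with H3K4me3 only, 15.4% with p300 only, 7.32% with neither and 20.1% of all. The NRF1 palindrome was in 2.97% of promoters with both, 1.19% with H3K4me3 only and 1.34% of all. GGGCGG was in 72.4% of promoters with both, 73.4% with H3K4me3 only, 46.6% with p300 only, 26.1% with neither and 51.6% of all. With a single start per gene it was in 75.1% (74.1 to 76.2) with both and 80.6% (79.5 to 81.7) with H3K4me3 only. CCAAT was in 34.3% with both, 33.1% with neither, 24.2% (21.4 to 27.2) with p300 only and 33.4% of all, and TGACGTCA in 3.19%, 0.973%, 2.99% and 2.10%. TGTGGT was most frequent in promoters with neither (16.4%, 16.0 to 16.8), and was in 8.61% with both, 8.10% with H3K4me3 only, 13.9% (11.7 to 16.4) with p300 only and 12.0% of all. TATAAA between -40 and -15 bp was in 3.10% (2.05 to 4.48) of starts with p300 only, 3.26% (3.08 to 3.45) with neither, 177 of the 18160 with H3K4me3 only, 0.784% with both and 1.96% of all. With a single start per gene it was in 9.56% (5.19 to 15.8) with p300 only, 1.81% with both and 7.96% with neither. Motif counts rise and fall with base composition, which differed between the classes as given above.

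Ribosomal protein genes and 3 other lists, made up mostly of genes used by every cell, had both, at 1 or more of their starts, more often than the 35.5% of all genes. Of 79 ribosomal protein genes 76 (96.2%) had both, and none had a single list. The Y-linked RPS4Y1 and RPS4Y2 were among the 3 with neither, as were all 109 starts of chromosome Y. At the ribosomal protein genes with both, p300 and H3K4me3 were at medians of 62.5 and 388 bp, against -22 and 240 bp over all genes with both. At RPLP0 they were at 8 and 162 bp, at RPS27 at 9 and 222 bp, and at RPL9 at 42 and 354 bp. Both were present at 69 of 78 mitochondrial ribosomal protein genes (88.5%), 33 of 37 aminoacyl-tRNA synthetase genes (89.2%) and 32 of 39 proteasome genes (82.1%). The proteasome genes with H3K4me3 only were PSMB6, PSMD10, and PSMB8, PSMB9 and PSMB10, which code for the 3 interferon-inducible catalytic subunits of the immunoproteasome. Of the constitutive catalytic subunit genes, PSMB5 and PSMB7 had both, whereas PSMB6 had its nearest p300 summit at -6124 bp. PSMA8 and PSMB11, which code for the testis and thymus forms, had neither.

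**Figure D4:**
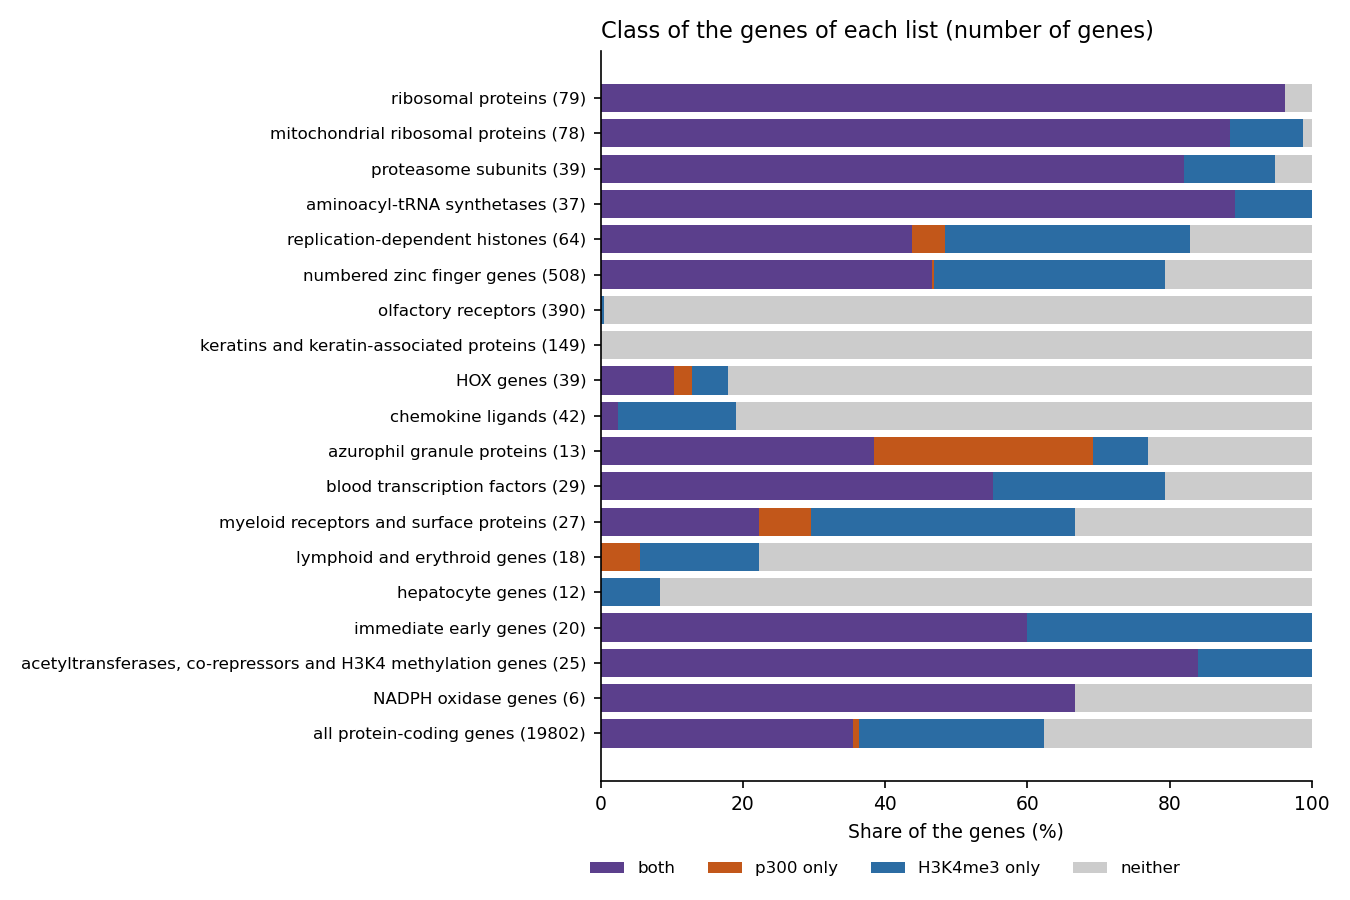
Share of the genes of each list in each class, with the number of genes and, in the lowest bar, all 19802 protein-coding genes. Ribosomal protein genes are at 96.2% with both, and olfactory receptor genes and the genes of keratins and keratin-associated proteins at 0%.

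The genes of the enzymes themselves were mostly positive for both. This held for 21 of 25 genes of acetyltransferases, co-repressors and H3K4 methylation, against 35.5% of all genes. EP300, the gene of p300, had p300 at -68 bp and H3K4me3 at 165 bp. KDM5B, an H3K4 demethylase gene, had them at 4 and 191 bp, and HDAC1, a deacetylase gene, at 152 and 249 bp. CREBBP, the paralog of EP300, had H3K4me3 at -510 bp and no p300 summit nearer than -303147 bp. The other genes with H3K4me3 only were HDAC3, SETD1B and WDR5. NCOR1, the gene of N-CoR, had p300 at -40 bp and H3K4me3 at 284 bp.

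Of 29 blood transcription factor genes, 16 (55.2%) had both, 7 (24.1%) H3K4me3 only and 6 (20.7%) neither. Over all genes these shares were 35.5%, 26.1% and 37.7%, so that the share with H3K4me3 only was near the background. Those with both included FLI1, an ETS factor gene, with p300 at -61 bp and H3K4me3 at 728 bp, IKZF1, at -48 and 189 bp, and LYL1, a helix-loop-helix factor gene, at -351 and 434 bp. AML1-ETO summits lay beside p300 at these, at -62 bp from FLI1, -23 bp from IKZF1 and -408 bp from LYL1. At CEBPA, with p300 at -39 bp and H3K4me3 at 320 bp, the nearest AML1-ETO summit was 15409 bp downstream. RUNX1, the gene of AML1, had both at 2 of its 8 starts, with p300 at -33 bp and H3K4me3 at -641 bp, and H3K4me3 only at 5; its peaks cannot be assigned to the normal or the translocated copy. H3K4me3 only was found at MYB, ERG, GATA2, GFI1B, RUNX2, CEBPE and PAX5. MYB, a progenitor factor gene, had H3K4me3 at 58 bp and its nearest p300 summit inside the gene, at 10299 bp. IRF8, a monocyte factor gene, had neither within 1000 bp, and the nearest p300 was at 29471 bp. GATA1, KLF1 and NFE2, factor genes of the red cell and platelet lines, also had neither, as did IRF4 and EBF1 of the B cell line.

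The list headed by genes of the azurophil granule, the store of enzymes made by promyelocytes, had the highest share of p300 without H3K4me3 among the 18 lists. It also holds RNASE2 and RNASE3, genes of ribonucleases of the eosinophil granule, and SERPINB1, the gene of a cytosolic protease inhibitor. Of 13 genes 5 (38.5%) had both, 4 (30.8%) p300 only, 1 (7.69%) H3K4me3 only and 3 (23.1%) neither. Over all genes these shares were 35.5%, 0.813%, 26.1% and 37.7%, so that the share with both was near that of all genes. However, 3 of the 13 (23.1%) were CpG-rich, against 65.6% of all genes. With a single start per gene, 7.60% of starts that were not CpG-rich had both, against 47.6% of CpG-rich ones. MPO, which codes for myeloperoxidase, had p300 at -99 bp and its nearest H3K4me3 at 2101 bp. At CTSG, the cathepsin G gene, these were at -96 and 133057 bp, at BPI at -72 and 130681 bp, and at RNASE2, an eosinophil ribonuclease gene, at 182 and 15893 bp. All 4 had AML1-ETO and N-CoR beside p300, at -114 and -111 bp in MPO and at -50 and -68 bp in BPI. Over the whole list AML1-ETO was at 9 of 13 genes and N-CoR at 9. Among all 19802 genes they were at 3831 and 2141, and of all p300 only starts 34.8% had both proteins. AZU1, the azurocidin gene, had p300 at -89 bp and H3K4me3 at 187 bp at 1 start and p300 only at the other. ELANE, the neutrophil elastase gene, had them at -370 and -107 bp, and PRTN3, the proteinase 3 gene next to it, had H3K4me3 only, at 649 bp. SERPINB1, a protease inhibitor gene, had both, at -29 and 435 bp. LYZ and SRGN, which code for lysozyme and the granule proteoglycan, had neither but had AML1 at -27 and -52 bp. The list is short, and the counts are a description.

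**Figure D5:**
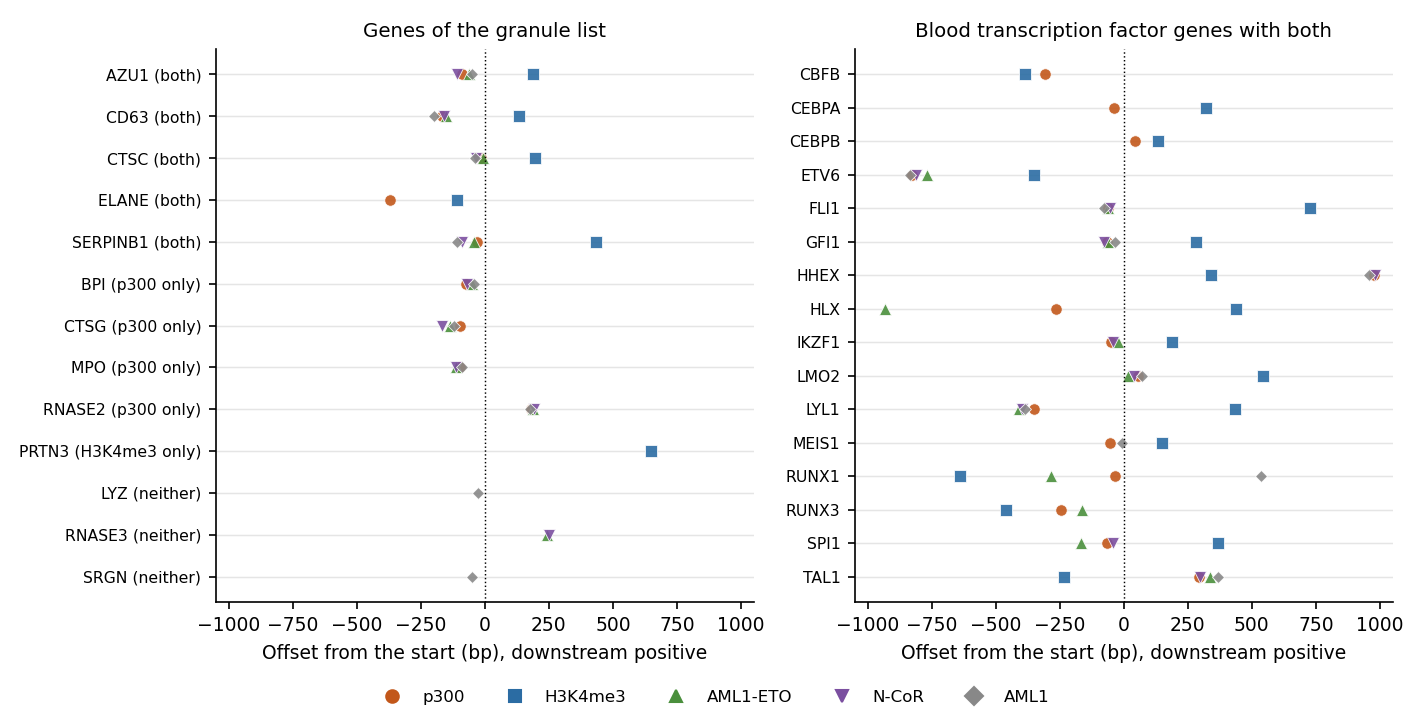
Offsets from the start, downstream positive, of the summits within 1000 bp at the 13 genes of the granule list (class in brackets) and at the 16 blood transcription factor genes with both. At MPO, CTSG, BPI and RNASE2 the summits of p300, AML1-ETO and N-CoR lie together and no H3K4me3 summit is in range.

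Myeloid receptor and surface protein genes were divided over all 4 classes. Of 27, 6 (22.2%) had both, 2 (7.41%) p300 only, 10 (37.0%) H3K4me3 only and 9 (33.3%) neither. Over all genes these shares were 35.5%, 0.813%, 26.1% and 37.7%. Only 4 of the 27 (14.8%) were CpG-rich, against 65.6% of all genes. With a single start per gene, 7.60% of starts that were not CpG-rich had both and 82.5% neither. CSF3R, the G-CSF receptor gene, had p300 at -30 bp and H3K4me3 at 354 bp, and ITGB2, the leukocyte integrin beta 2 gene, at -72 and 240 bp. CSF2RB, LAPTM5, SPN and CD37 were the others with both. KIT and SELPLG, the gene of the P-selectin ligand, had p300 only. CD34 had H3K4me3 at 197 bp and its nearest p300 summit at 47040 bp, and CD33 had H3K4me3 at 354 bp with AML1-ETO at -10 bp and N-CoR at -1 bp. FLT3, a cytokine receptor gene, had H3K4me3 at 303 bp and AML1-ETO at -52 bp. CSF1R, the monocyte growth factor receptor gene, had neither, with AML1-ETO at -43 bp and p300 at 3974 bp. TYROBP, an adaptor gene, had its p300 summit just outside the limit, at -1182 bp. CSF2RA and IL3RA, which also had neither, lie in the pseudoautosomal region, which this build holds on X and Y. Of the 6 NADPH oxidase genes 4 had both, among them NCF4, CYBA and RAC2, RAC2 with p300 at 0 bp and H3K4me3 at 375 bp, whereas CYBB and NCF1 had neither. NCF1 has near-identical copies nearby.

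Immediate early genes, which are turned on within minutes of a stimulus, all had the mark, against 61.7% of all genes. Both were found at 12 of 20, near the 57.6% over all genes of the classes both and H3K4me3 only. JUNB had p300 at -9 bp and H3K4me3 at 358 bp, and IER2 at -42 and 269 bp. FOS had H3K4me3 at 105 bp and its nearest p300 at 23144 bp. EGR1 and DUSP1 had H3K4me3 within range, at -942 and 196 bp, and p300 outside it, at -1337 and -1423 bp. Replication-dependent histone genes, which are transcribed in S phase, had both at 28 of 64, p300 only at 3 (H3C1, H3C12 and H4C13), H3K4me3 only at 22 and neither at 11, against 35.5%, 0.813%, 26.1% and 37.7% of all genes. Of the 50 histone genes of the classes both and H3K4me3 only, 28 had both, again near 57.6%. N-CoR was at 41 of the 64 and AML1-ETO at 8, whereas among all 19802 genes N-CoR was at 2141 and AML1-ETO at 3831. H1-2 had p300 at 51 bp, N-CoR at -33 bp and H3K4me3 at 206 bp. These genes are short, clustered and similar in sequence, so neighbours may share summits, which was not tested. Of 508 numbered zinc finger genes 237 (46.7%) had both, 165 H3K4me3 only, 105 neither and 1, ZNF575, p300 only. The share with neither was 20.7%, against 37.7% of all genes, and of those classed both or H3K4me3 only 59.0% had both, near the 57.6% over all genes.

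Olfactory receptor, keratin, HOX, chemokine and hepatocyte genes were mostly without either, against 37.7% of all genes. Apart from HOX these lists held few CpG-rich genes, against 65.6% of all genes. The shares were 1.03% (olfactory receptors), 2.68% (keratins and keratin-associated proteins), 16.7% (chemokines) and 0% (hepatocyte). With a single start per gene, 82.5% of starts that were not CpG-rich had neither. Of 390 olfactory receptor genes 388 had neither, and OR1F1 and OR52N2 had H3K4me3 only. None of the 149 genes of keratins and keratin-associated proteins had a summit of either list. Of 39 HOX genes, 82.1% of them CpG-rich, 32 had neither. Those with both included HOXA5, HOXD8 and HOXD13. HOXA10 had p300 only, with H3K4me3 at 1071 bp, and HOXA11 and HOXA13 H3K4me3 only. Of 42 chemokine genes 34 (81.0%) had neither, near the share of starts that were not CpG-rich. CXCL8, the interleukin 8 gene, was the chemokine gene with both, with p300 at 84 bp and H3K4me3 at 521 bp. Of 12 hepatocyte genes SERPINA1 had H3K4me3 and the rest neither.

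Markers of the labelled cell type were checked for a summit, which does not measure expression. All 10 myeloblast markers checked (CD34, KIT, CD33, MPO, ELANE, AZU1, PRTN3, CSF3R, SPI1 and CEBPA) had p300 or H3K4me3 at a start, and 5 had both, where 37.7% of all genes had neither. The markers are only some of the myeloid genes listed: 3 of 13 genes of the granule list and 9 of 27 genes of the receptor list had neither, among them LYZ, SRGN, CSF1R and IL3RA. Of 5 T cell markers CD247 had H3K4me3 and CD3D, CD3E, CD3G and LCK neither. Of 5 B cell markers CD79B and PAX5 had H3K4me3 only, CD79A p300 only at 384 bp, and 2, among them MS4A1, neither. None of the 5 erythroid markers, among them HBB, HBA1, KLF1 and ALAS2, had a summit of either list, though HBA1 has a near-identical neighbour.

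The genes with H3K4me3 and no p300 summit at any start are described by the 8 with the lowest H3K4me3 peak numbers, a choice that does not stand for the whole class. Of these, CDC23, a subunit gene of the anaphase-promoting complex, had H3K4me3 at 287 bp and its nearest p300 at 34726 bp. SLC17A5, a lysosomal sialic acid transporter gene, had H3K4me3 at 227 bp and AML1-ETO at -328 bp. ATP6V1E1, a subunit gene of the vacuolar proton pump, had H3K4me3 at 232 bp and AML1 at -79 bp. PET100 and XAB2 lie head to head and shared an H3K4me3 summit, at -500 bp from PET100 and 252 bp from XAB2. STX12, PRRC2C and ZNF169 had H3K4me3 at 255, 294 and 288 bp. Over all starts with H3K4me3 only, the nearest p300 summit was a median of 61174 bp away, and 5.74% had one within 2000 bp.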

How the data were processed

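Per the labels and the study's methods, the authors fixed Kasumi-1 cells with formaldehyde, sonicated the chromatin, sequenced 2 ChIP libraries per antibody, aligned reads to hg19 with Bowtie 0.12.8, pooled replicates and called peaks with MACS (MACS2 2.0.10.20131216 in the submitters' processing notes, which also name CASAVA 1.6) at a threshold of 1e-20. The p300 and N-CoR precipitations were washed differently from the H3K4me3, AML1 and AML1-ETO ones. The deposited files hold positions and a peak name and no score; every interval is 100 bp wide with the summit at base 50 counted from 0. The p300 and H3K4me3 peaks are named with the prefix aml1_peak_ and the N-CoR peaks with eto_peak_; lists were taken by the sample they belong to. An input library was also sequenced, and whether it served as control in peak calling is not given in the sources used here.

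From the deposited positions, the nearest summit of each list to each of 78641 starts (89138 of 254376 transcripts, GENCODE 44 lifted to GRCh37, chromosomes 1 to 22, X and Y) was found. CpG content was counted within 500 bp of the start and motifs on both strands. A gene took the class both if any start had both, then p300 only, then H3K4me3 only. The start shown for a gene is its representative one (Ensembl canonical) where that has the gene's class, else the one nearest a summit. Genes named are those of 18 lists, the 8 with both of lowest p300 number, the 10 with p300 only and no H3K4me3 at any start nearest p300 and the 10 farthest from H3K4me3, and the 8 with H3K4me3 only of lowest number, leaving out chromosomes 8 and M. A few named items are not reported here. The members, lists and comparisons were chosen with earlier results of these data known. Shares have exact Clopper-Pearson 95% intervals and medians order-statistic intervals. Splits of the p300 only class, distances between summits, offsets by CpG content, the chromosome X shares and CACGTG were added after the data had been seen. The classification recovered all 4000 starts of a simulated set with planted summits, which checks the code and not the classes of the real starts. Alternatives were other distances, CpG limits and sets of starts. Sequence was read with samtools 1.23.1 through pysam 0.24.0. Tables were handled in Python 3.11.15 with pandas 2.3.3 and numpy 2.4.6, intervals computed with SciPy 1.17.1, and plots drawn with matplotlib 3.10.9.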

Additional observations from a re-analysis of the deposited data

How the results depend on the processing

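The sign of both median offsets and the place of H3K4me3 downstream of p300 were the same at other distances, with a single start per gene, and without opposite-strand starts. The order of the classes by CpG-rich share was the same with a single start per gene and at both other CpG settings, but at 500 bp the share of p300 only was above that of H3K4me3 only and at 2000 bp below that of neither. For basic-tagged starts only the counts were run. With a summit allowed within 500 bp, p300 only held 3604 starts; the CpG-rich shares were 91.0% (both), 85.3% (p300 only), 84.6% (H3K4me3 only) and 22.0% (neither), the p300 median was -33 bp and H3K4me3 was downstream of p300 at 81.1%. Within 2000 bp, p300 only held 465 starts, the first 3 CpG-rich shares were 86.0%, 14.2% and 78.3%, the medians were -45 and 221 bp and the downstream share was 76.6%. With a single start per gene the classes held 6630 (both), 136 (p300 only), 5069 (H3K4me3 only) and 7967 (neither) of 19802, the CpG-rich shares were 92.0%, 53.7%, 87.6% and 27.6%, the medians -22 and 243 bp and the downstream share 78.7%. Starts of basic-tagged transcripts with neither numbered 22119. Counted within 250 bp, the CpG-rich shares of both, H3K4me3 only and neither were 90.6%, 82.5% and 19.8%; at limits of 0.75 and 55% all 4 were 57.5%, 22.4%, 51.4% and 8.81%. Without starts that have an opposite-strand start within 2000 bp, the medians were -33 and 235 bp and the downstream share 83.0%.

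With each chromosome left out in turn, starts with both numbered 21952 to 24376, p300 only 789 to 871, H3K4me3 only 16750 to 18160 and neither 32049 to 35125. The CpG-rich shares stayed at 89.0 to 89.7%, 44.3 to 47.9%, 80.6 to 81.6% and 17.6 to 18.1%, the medians at -42 to -39 bp and 223 to 226 bp, and the downstream share at 77.3 to 77.9%. A stricter peak threshold was not run because the lists carry no score. No paired analysis was possible because the replicates of each antibody were pooled into 1 list. The intervals cover counting error over starts, not the spread between libraries, and a start without a summit may hold signal under the authors' threshold.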
